A study of Mus musculus with 34 samples.

Results

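The 10 genes described here, Fabp4, Fabp5, Plin2, Plin4, Angptl4, Lpin1, Pnpla2, Pparg, Cebpb and Cebpd, encode carriers, coats, enzymes and transcription factors of fat storage and fat cell formation. They were taken by name from a table of 55341 mouse gene names counted in 34 total RNA libraries, and all 10 matched 1 gene and passed the filter on low counts in every model. The cells were mouse mammary adenocarcinoma cells of the 3617 line whose own glucocorticoid receptor (GR, gene Nr3c1) was knocked out and which carried a GFP-tagged mouse GR instead. Every library, controls included, therefore came from GR-knockout cells with a tagged receptor.

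Treatment was dexamethasone (Dex), a synthetic hormone that activates GR, at 100 nM for 2 h, and control cells were given the ethanol vehicle (EtOH). In library set 1 the receptor was Y551A-Dim, Y551A or wild type (WT), with 3 libraries per line and treatment. In library set 2 it was D647V-Tetra or D647V, with 3 libraries per line and treatment, or WT, with 2. The labels do not spell out Dim and Tetra. WT has the same label in both sets and is counted once per set wherever 6 lines are spoken of, for 5 receptor forms. Medium with 10% charcoal-stripped serum for at least 24 h and 5 µg/ml tetracycline were common to all cells. The study concerns how the ligand-binding domain of GR shapes the receptor's activity, and the comparisons ask how each receptor form changes the early Dex response. Each receptor form had a single line in a set, so a substitution and other differences between lines cannot be told apart. Different stranded library kits were used in 2 batches, per the labels, which do not tie libraries to a batch. Different receptor forms were therefore compared only within a set. WT was the exception, since its libraries of both sets were also fitted together and its responses compared between sets. The labels speak of replicates but not of separate cultures, so the p-values measure the spread between these libraries, which may be technical.

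Fat is kept in cells as triglyceride inside lipid droplets, which are coated by perilipins. Fatty acids reach and leave the droplet bound to small carrier proteins, triglyceride is made by a chain of enzymes that includes the lipins, and it is broken down first by the lipase encoded by Pnpla2. Glucocorticoids are a standard part of the hormone mixture that turns cultured preadipocytes into fat cells: Cebpd and Cebpb come on early, and they precede the nuclear receptor encoded by Pparg, whose targets include the carrier and perilipin genes.

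Promoter windows of RefSeq on GRCm38.p6, the assembly also called mm10, span 250 bases before to 50 after an annotated start. They were available for 6 of the 10 genes: Plin2, Plin4, Lpin1, Pnpla2, Pparg and Cebpb. Both strands were searched for the GR element (AGAACA, any 3 bases, then TGTTCT), the GR half-site AGAACA, the DR1 element bound by PPAR proteins (AGGTCA, any base, then AGGTCA), the C/EBP element TTNNGCAA, the CCAAT box CCAAT and the TATA box TATAAA. The GR element contains the half-site, and the other motifs were searched independently of each other. No window of these 6 genes held a full GR element or a DR1 element, which 0.00913% and 0.0396% of all 32851 windows held. A half-site was in 19% of all windows, a C/EBP element in 10.8%, a CCAAT box in 37.4% and a TATA box in 13.6%.

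Shown are the windows of Plin4 (chr17:56109733-56110032, minus strand) and Lpin1 (chr12:16610917-16611216, minus strand). Plin4 was the 1 gene called upward with Dex in every line, and Lpin1 had a negative change in every line, called in 4 of 6. Also shown are the windows of 2 transcription factor genes, Pparg (chr6:115421816-115422115, plus strand, the most downstream of its 3 windows) and Cebpb (chr2:167688665-167688964, plus strand). Each runs 5′ to 3′ along the gene, and capitals mark matched motifs. In Plin4 they mark a CCAAT box on the reverse strand 18 bases before the start, and in Lpin1 a GR half-site on the reverse strand 163 bases before it. In Pparg they mark C/EBP elements 215 bases (reverse strand) and 16 bases before the start and CCAAT boxes 144 and 22 bases before it. In Cebpb they mark a TATA box 21 bases after the annotated start. Of the 8 windows of these 6 genes, only the Pparg window shown held a C/EBP element. The Pparg window from 115362099 held a CCAAT box 83 bases and a TATA box 29 bases before its start, both on the reverse strand. The Pparg window from 115360894 and that of Pnpla2 held no motif, and that of Plin2 held a CCAAT box 73 bases before the start.
Plin4: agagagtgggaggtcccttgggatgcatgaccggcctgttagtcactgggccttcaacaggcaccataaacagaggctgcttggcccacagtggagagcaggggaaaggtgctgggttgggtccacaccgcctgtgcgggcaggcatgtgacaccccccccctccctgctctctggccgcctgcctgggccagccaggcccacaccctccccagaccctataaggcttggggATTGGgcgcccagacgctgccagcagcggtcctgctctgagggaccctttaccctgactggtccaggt
Lpin1: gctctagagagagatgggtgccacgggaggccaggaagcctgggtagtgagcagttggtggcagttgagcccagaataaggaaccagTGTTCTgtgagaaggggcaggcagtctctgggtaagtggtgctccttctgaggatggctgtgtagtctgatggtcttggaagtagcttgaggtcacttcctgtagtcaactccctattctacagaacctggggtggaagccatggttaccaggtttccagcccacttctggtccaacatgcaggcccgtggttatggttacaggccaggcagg
Pparg: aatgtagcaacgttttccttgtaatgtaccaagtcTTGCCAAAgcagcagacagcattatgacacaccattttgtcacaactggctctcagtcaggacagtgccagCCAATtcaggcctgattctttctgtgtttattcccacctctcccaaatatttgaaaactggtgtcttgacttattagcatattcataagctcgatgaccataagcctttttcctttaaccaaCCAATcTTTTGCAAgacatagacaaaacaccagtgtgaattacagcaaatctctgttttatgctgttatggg
Cebpb: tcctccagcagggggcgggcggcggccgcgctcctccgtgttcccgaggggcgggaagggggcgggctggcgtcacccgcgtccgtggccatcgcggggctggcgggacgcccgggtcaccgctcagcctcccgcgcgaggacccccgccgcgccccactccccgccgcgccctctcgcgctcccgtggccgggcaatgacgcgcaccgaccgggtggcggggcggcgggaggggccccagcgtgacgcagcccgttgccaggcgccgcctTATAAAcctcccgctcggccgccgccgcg
The matches describe letters in these windows only, and the counts of a gene do not separate transcripts from its different starts.

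Depth ran from 44998213 to 70124595 counted reads per library in set 1 and from 60277930 to 79776573 in set 2. The receptor gene Nr3c1 stood between 234 and 380 CPM (counts scaled to the same normalized library size) in all 34 libraries, and its counts do not separate the knocked-out gene from the tagged one. In set 1 it ran from 307 to 357 CPM in Y551A-Dim, from 341 to 380 in Y551A and from 266 to 287 in WT. In set 2 it ran from 234 to 274 CPM in D647V-Tetra, from 285 to 301 in D647V and from 337 to 341 in WT. WT was thus lowest in set 1 and highest in set 2, without overlap. Markers went against an epithelial identity: 7 of 8 mammary epithelial genes were below 1 CPM in every library, Epcam had no read, Cdh1 reached at most 0.0682 CPM, and only Krt14 (2.46 to 19.7 CPM) was higher. The 7 fibroblast markers were split: Dcn, Lum and Thy1 reached at most 0.143, 0.125 and 0.029 CPM and Col1a1 at most 2.44 CPM, while Col1a2 (1630 to 2740 CPM), Pdgfrb (106 to 202 CPM) and Pdgfra (22.2 to 39.3 CPM) were high. The cells were not fat cells by their markers, since 9 of 10 adipocyte genes, among them Adipoq, Plin1 and Cidec, were below 1 CPM in every library and Cfd had no read. Lipe, the hormone-sensitive lipase, was the exception at 3.83 to 6.92 CPM. In total RNA from a culture, fewer expressing cells and less RNA per cell cannot be told apart.

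Per kilobase of exon, the 10 genes spanned a wide range in WT cells without Dex. In set 1 (n = 3) Plin2 led with 68.8 reads per kilobase of exon at CPM scale (RPKM), ahead of Plin4 with 30.3, Fabp5 with 22.6 and Cebpb with 18.2 RPKM. Lpin1 (11.1), Angptl4 (7.75), Pnpla2 (5.99), Pparg (3.04) and Cebpd (1.25 RPKM) followed, and Fabp4 was lowest with 0.474 RPKM. In set 2 (n = 2) Plin2 was again first with 81.9 RPKM and Fabp4 last with 0.511 RPKM, while Cebpb stood above Fabp5 (30.4 against 17.2 RPKM) and Pparg above Pnpla2 (6.61 against 6.01 RPKM). The gap between Pparg and Pnpla2 in set 2 was within the spread of the libraries.

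Dex moved a larger share of these genes than of all genes in each line. In Y551A-Dim, Dex called 4 of the 10 genes, against 1.09% of all 16140 genes tested in set 1; 3 rose (0.898% of all) and 1 fell (0.192%). In Y551A it called 5, against 1.84%, and all 5 rose (1.43%). In WT of set 1 it called 6, against 3.4%; 4 rose (2% of all) and 2 fell (1.4%). In D647V-Tetra it called 6, against 19.2% of all 17535 genes tested in set 2; 3 rose (11.3%) and 3 fell (7.89%). In D647V it called 3, against 0.941%, and all 3 rose (0.804%). In WT of set 2 it called 5, against 1.72%; 4 rose (1.35%) and 1 fell (0.376%). Over the WT libraries of both sets, fitted together, it called 8, against 5.1% of 16540 genes; 6 rose (2.94%) and 2 fell (2.15%). Called means a Benjamini-Hochberg adjusted p below 0.05 over all genes of a contrast in edgeR's quasi-likelihood test, with no minimum fold. The genes were listed with results of these data known, so the excess over the background describes the list and tests nothing. The counts over all genes depended on single libraries. In Y551A-Dim, 176 genes were called with all libraries and 87 to 674 with 1 left out, the most without Dex replicate 3. In D647V-Tetra, 3367 genes were called with all libraries, against 1917 and 1700 without EtOH replicate 1 or 3 and 1644 and 1344 without Dex replicate 1 or 3. In WT of set 2 the count was 302, against 195 without Dex replicate 1, and over the WT libraries of both sets it was 843, against 1281 without EtOH replicate 1 of set 2.

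**Figure D1:**
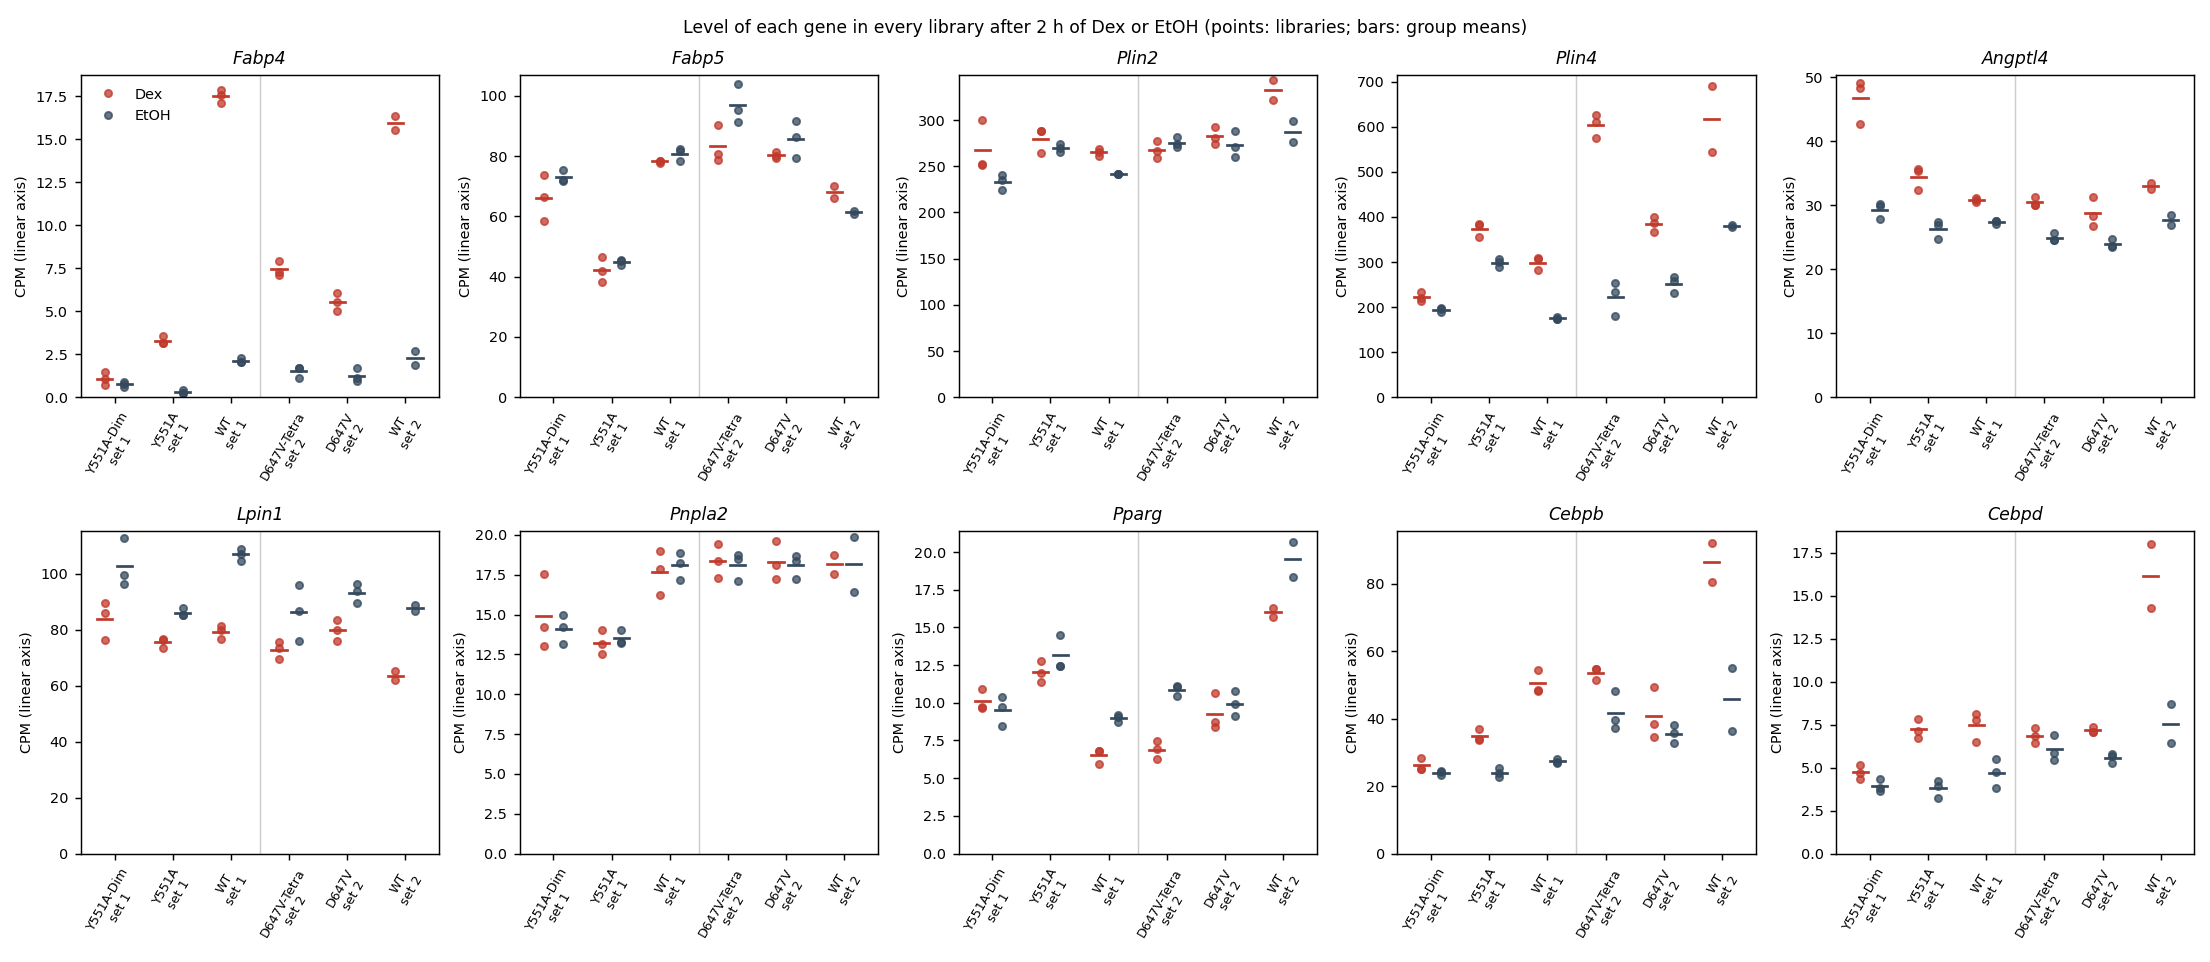
Level of each of the 10 genes in every library, in CPM on linear axes that start at 0; points are libraries, short bars are group means, red is Dex and dark blue is EtOH, with set 1 left and set 2 right of the grey line. Fabp4 with Dex reaches 15.5 to 17.9 CPM in WT and 0.705 to 1.47 CPM in Y551A-Dim, Plin4 with Dex lies above EtOH in every line, and Lpin1 with Dex lies below it.

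Fabp4, the fatty acid carrier that is abundant in mature fat cells, had the steepest response of the 10 genes in 5 of the 6 lines and was not called in Y551A-Dim. Y551A-Dim libraries held 1.04, 1.47 and 0.705 CPM with Dex and 0.786, 0.580 and 0.882 CPM with EtOH. These ranges overlapped, and the change of 0.49 ± 0.211 log2 (SE, n = 3 per group) was not called (adjusted p = 0.366). Without Dex replicate 3, the lowest Dex library, the change was 0.75 log2 and was called (adjusted p = 0.0291), and without Dex replicate 2, the highest, it was 0.20 (adjusted p = 0.744). Y551A libraries held 3.57, 3.14 and 3.18 CPM with Dex and 0.274, 0.409 and 0.269 CPM with EtOH. WT libraries of set 1 held 17.1, 17.6 and 17.9 CPM with Dex and 2.04, 2.07 and 2.28 CPM with EtOH. In both lines every Dex library lay above every EtOH library, by 3.35 ± 0.218 log2 in Y551A (adjusted p = 1.47e-11) and 3.04 ± 0.153 log2 in WT (adjusted p = 3.28e-14). With Dex, the Y551A level of 3.30 CPM thus exceeded the WT level without Dex (2.13 CPM) and was below WT with Dex (17.5 CPM), although both lines changed by a similar ratio.

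In set 2, Fabp4 libraries of D647V-Tetra held 7.12, 7.27 and 7.89 CPM with Dex and 1.72, 1.12 and 1.67 CPM with EtOH. D647V libraries held 6.08, 5.02 and 5.53 CPM with Dex and 0.945, 1.70 and 1.14 CPM with EtOH, and WT libraries 15.5 and 16.4 CPM with Dex and 2.71 and 1.88 CPM with EtOH. The ranges did not overlap in any of these lines. Fabp4 rose by 2.30 ± 0.193 log2 in D647V-Tetra (adjusted p = 3.71e-07), by 2.13 ± 0.194 in D647V (adjusted p = 3.36e-06) and by 2.80 ± 0.230 in WT (adjusted p = 4.1e-07; n = 2 per group). The EtOH level in Y551A rests on 14 to 24 reads per library. Both mates of a pair were counted, so a fragment with both mates in the gene adds 2 reads. Even counts were 28 of 34 for Fabp4, 24 for Cebpd and 11 for Plin2, all counted alike, and why Fabp4 had the most was not tested. In the annotation, chromosome 3 from 10204088 to 10208576 on the minus strand, counted exons cover 100% of the Fabp4 span, introns included.

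Fabp5, the epidermal-type carrier that neighbours Fabp4 on chromosome 3 (10012548 to 10016607, plus strand), did not share this response. Its changes ran from -0.22 to 0.15 log2 over the 6 lines, and it was called in D647V-Tetra only, where it fell by 0.22 ± 0.061 log2 (adjusted p = 0.022; n = 3 per group). There, Dex libraries held 78.9, 90.3 and 80.6 CPM and EtOH libraries 103.8, 91.3 and 95.4 CPM, without overlap. In set 1, Fabp5 ranged from 58.3 to 73.6 CPM with Dex and from 71.7 to 75.3 CPM with EtOH in Y551A-Dim, from 38.3 to 46.5 CPM with Dex and from 43.8 to 45.5 CPM with EtOH in Y551A, and from 77.9 to 78.5 CPM with Dex and from 78.4 to 82.3 CPM with EtOH in WT. Dex and EtOH overlapped in each of these lines, and every Y551A library lay below every library of the other lines of the set. D647V ranged from 79.3 to 81.5 CPM with Dex and from 79.5 to 91.6 CPM with EtOH, an overlap as well. WT of set 2 had the opposite order to D647V-Tetra, with 66.0 and 70.1 CPM with Dex against 61.9 and 61.0 CPM with EtOH, a change of 0.15 ± 0.076 log2 that was not called. The D647V-Tetra call was lost without Dex replicate 1 (adjusted p = 0.102) or 3 (0.103), and without EtOH replicate 1 (0.0903) or 3 (0.052).

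Plin4, a perilipin of small nascent droplets known from fat cells and muscle, was the 1 gene of the 10 called in all 6 lines, always upward. Its response was smallest in Y551A-Dim and largest in D647V-Tetra. Y551A-Dim libraries held 234, 212 and 220.0 CPM with Dex and 197, 195 and 189 CPM with EtOH. Y551A libraries held 382, 385 and 356 CPM with Dex and 299, 288 and 306 CPM with EtOH, against 308, 306 and 282 CPM with Dex and 174, 173 and 178 CPM with EtOH in WT. Dex lay above EtOH without overlap in each line, by 0.20 ± 0.042 log2 in Y551A-Dim (adjusted p = 0.0128), 0.33 ± 0.042 in Y551A and 0.77 ± 0.042 in WT (SE, n = 3 per group). The call in Y551A-Dim was lost without Dex replicate 1 (adjusted p = 0.142) or EtOH replicate 3 (0.0845), and with only the compared groups in the model (0.136).

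In set 2, Plin4 libraries of D647V-Tetra held 612, 574 and 627 CPM with Dex and 180, 254 and 234 CPM with EtOH. D647V libraries held 368, 387 and 401 CPM with Dex and 259, 230 and 267 CPM with EtOH, and WT libraries 690 and 543 CPM with Dex and 382 and 378 CPM with EtOH. Dex again lay above EtOH in each line, and D647V-Tetra combined EtOH levels below WT with Dex levels inside the WT range. Plin4 rose by 1.44 ± 0.104 log2 in D647V-Tetra (adjusted p = 5.15e-08), 0.61 ± 0.103 in D647V (adjusted p = 0.00305) and 0.70 ± 0.126 in WT (adjusted p = 0.00359). D647V-Tetra EtOH replicate 1, with the lowest Plin4 level, also stood apart over all genes, with a chi-square per degree of freedom of 64.4 and 70.4 against the other EtOH libraries of the line and 15.5 between those, and without it the D647V-Tetra change was 1.30 log2 and still called. The WT call of set 2 was lost without Dex replicate 1 (adjusted p = 0.101). Plin4 lies on chromosome 17 (56100591 to 56109803, minus strand) and overlaps 5 exon entries of Hdgfl2 on the opposite strand. An exon can be entered once per annotated transcript, so these may be fewer distinct exons. Per the file headers reads were assigned by strand.

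Plin2, the perilipin found on droplets of most cell types, was highest of the 10 per kilobase in WT without Dex and changed little. Its changes ran from -0.041 to 0.21 log2. It was called in Y551A-Dim (0.20 ± 0.049 log2, adjusted p = 0.0466) and over the WT libraries of both sets (0.18 ± 0.029 log2, adjusted p = 8.15e-04), where Dex libraries lay above EtOH libraries in both sets: 261 to 268 CPM against 241 to 242 CPM in set 1, and 322 and 343 CPM against 299 and 276 CPM in set 2. In Y551A-Dim, Dex libraries held 299.6, 251 and 252 CPM and EtOH libraries 235, 240 and 225 CPM, so replicate 1 stood apart from the other Dex libraries. Without it the change was 0.11 log2 (adjusted p = 0.577). Leaving out EtOH replicate 1 (adjusted p = 0.143), 2 (0.085) or 3 (0.199) ended the call as well.

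Angptl4, the secreted inhibitor of lipoprotein lipase that keeps circulating fat out of tissues, was highest with Dex in Y551A-Dim, the line in which Fabp4, Cebpb and Cebpd were not called. Y551A-Dim libraries held 49.2, 42.8 and 48.4 CPM with Dex and 30.3, 29.9 and 27.8 CPM with EtOH. Y551A libraries held 35.6, 35.4 and 32.4 CPM with Dex and 27.0, 24.7 and 27.4 CPM with EtOH, and WT libraries 30.5, 31.2 and 30.8 CPM with Dex and 27.6, 27.2 and 27.6 CPM with EtOH. EtOH levels of the 3 lines lay close together, and Dex lay above EtOH in each. The increase was 0.67 ± 0.056 log2 in Y551A-Dim (adjusted p = 9.19e-09), 0.39 ± 0.057 in Y551A (adjusted p = 6.4e-05) and, not called, 0.17 ± 0.057 in WT (adjusted p = 0.143). Tested directly, the difference between the Y551A-Dim and Y551A responses was not called. Of the other settings tried, only leaving out Y551A-Dim Dex replicate 2 gave a call (0.35 log2, adjusted p = 0.024 by edgeR's test).

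In set 2 the Angptl4 changes lay close together. D647V-Tetra libraries held 30.03 to 31.3 CPM with Dex and 24.6 to 25.7 CPM with EtOH, D647V libraries 26.7 to 31.3 CPM with Dex and 23.4 to 24.7 CPM with EtOH, and WT libraries 32.5 and 33.5 CPM with Dex and 26.9 and 28.5 CPM with EtOH. The ranges did not overlap in any line. Angptl4 rose by 0.29 ± 0.056 log2 in D647V-Tetra (adjusted p = 0.00236) and 0.27 ± 0.056 in D647V (adjusted p = 0.0246), and the change of 0.25 ± 0.069 in WT was not called (adjusted p = 0.0945; n = 2 per group). Over the WT libraries of both sets the change of 0.21 ± 0.037 log2 was called (adjusted p = 0.0011). The D647V call was lost without Dex replicate 1 (adjusted p = 0.118) or 2 (0.0643), and without EtOH replicate 1 (0.113), 2 (0.136) or 3 (0.0535).

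Lpin1 encodes the phosphatidate phosphatase that makes diacylglycerol for triglyceride synthesis and also acts in the nucleus as a coregulator. It was the only 1 of the 10 genes with negative changes in all 6 lines, and in each line every Dex library lay below every EtOH library. Y551A-Dim libraries held 76.4, 85.9 and 89.7 CPM with Dex and 99.7, 113 and 96.3 CPM with EtOH, Y551A libraries 76.7, 76.5 and 73.5 CPM with Dex and 85.2, 85.4 and 87.6 CPM with EtOH, and WT libraries 76.8, 81.5 and 79.7 CPM with Dex and 105, 109 and 107 CPM with EtOH. The Dex levels of these 3 lines lay close together, and the EtOH levels differed more. Lpin1 fell by 0.29 ± 0.052 log2 in Y551A-Dim (adjusted p = 0.00237) and by 0.43 ± 0.052 in WT (adjusted p = 1.62e-06), and the change of -0.19 ± 0.053 in Y551A was not called (adjusted p = 0.0723). The Y551A change was called with DESeq2's test (adjusted p = 0.0316), with no low-count filter (0.007) and with only the compared groups in the model (0.00966), a setting in which the Y551A-Dim change was not called (0.118).

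In set 2, Lpin1 libraries of D647V-Tetra held 75.5, 69.4 and 73.5 CPM with Dex and 75.8, 96.2 and 86.6 CPM with EtOH, so EtOH replicate 1 nearly reached the Dex levels. D647V libraries held 83.3, 79.9 and 76.1 CPM with Dex and 94.0, 96.5 and 89.4 CPM with EtOH, and WT libraries 61.9 and 65.3 CPM with Dex and 86.6 and 88.8 CPM with EtOH. Lpin1 fell by 0.24 ± 0.067 log2 in D647V-Tetra (adjusted p = 0.0204) and by 0.46 ± 0.083 in WT (adjusted p = 0.00348), and the change of -0.23 ± 0.067 in D647V was not called (adjusted p = 0.224). The WT call was lost without Dex replicate 1 (adjusted p = 0.0718). The D647V-Tetra call was lost without Dex replicate 2 (adjusted p = 0.057) or 3 (0.0627), and without EtOH replicate 2 (0.074) or 3 (0.0609).

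Pnpla2, the first lipase of triglyceride breakdown and a known glucocorticoid-induced gene of fat tissue, was called in none of the 6 lines, and none of its 6 changes had an unadjusted p below 0.05 or was called by DESeq2. Its changes ran from -0.034 to 0.078 log2 and its Dex and EtOH libraries overlapped in every line. In WT of set 1 the 95% interval was -0.21 to 0.14 log2, with 17.9, 19 and 16.2 CPM with Dex and 18.2, 18.9 and 17.2 CPM with EtOH. Y551A-Dim ranged from 13.01 to 17.5 CPM with Dex and from 13.1 to 15.0 CPM with EtOH, and Y551A from 12.5 to 14.0 CPM with Dex and from 13.2 to 14.1 CPM with EtOH. In set 2 the lines lay together, at 17.3 to 19.4 CPM with Dex and 17.1 to 18.8 CPM with EtOH in D647V-Tetra, 17.3 to 19.6 CPM with Dex and 17.2 to 18.7 CPM with EtOH in D647V, and 17.6 and 18.8 CPM with Dex and 16.4 and 19.9 CPM with EtOH in WT.

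Pparg encodes the nuclear receptor required for fat cell formation. It fell in WT of set 1 and in D647V-Tetra, and did not pass the test in the other lines. WT libraries of set 1 held 6.77, 5.97 and 6.81 CPM with Dex and 8.71, 9.03 and 9.20 CPM with EtOH, a fall of 0.46 ± 0.090 log2 (adjusted p = 0.00148). D647V-Tetra libraries held 6.28, 7.47 and 6.96 CPM with Dex and 11.1, 11.1 and 10.4 CPM with EtOH, a fall of 0.66 ± 0.098 log2 (adjusted p = 2.65e-04). In both lines the ranges did not overlap. WT of set 2 also had separate ranges, 15.7 and 16.3 CPM with Dex against 18.4 and 20.7 CPM with EtOH, and its change of -0.29 ± 0.115 log2 was not called (adjusted p = 0.419). Y551A-Dim ranged from 9.63 to 10.9 CPM with Dex and from 8.47 to 10.4 CPM with EtOH, Y551A from 11.4 to 12.8 CPM with Dex and from 12.5 to 14.5 CPM with EtOH, and D647V from 8.41 to 10.7 CPM with Dex and from 9.10 to 10.8 CPM with EtOH. These ranges overlapped, with changes of 0.082 ± 0.085 log2 in Y551A-Dim, -0.13 ± 0.084 in Y551A and -0.099 ± 0.097 in D647V. Over the WT libraries of both sets the fall of 0.37 ± 0.059 log2 was called (adjusted p = 4.35e-04).

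Cebpb, an early transcription factor of the fat cell program that also acts in inflammation and in the mammary gland, rose in WT of both sets and in Y551A. Y551A-Dim libraries held 28.4, 25.1 and 25.2 CPM with Dex and 24.3, 24.6 and 23.2 CPM with EtOH. Y551A libraries held 33.7, 37.0 and 33.9 CPM with Dex and 25.3, 22.7 and 23.8 CPM with EtOH, against 48.1, 54.6 and 48.6 CPM with Dex and 28.0, 27.1 and 27.0 CPM with EtOH in WT. EtOH levels of the 3 lines lay between 22.7 and 28.0 CPM, and Dex levels were lowest in Y551A-Dim, higher in Y551A and highest in WT. Cebpb rose by 0.54 ± 0.061 log2 in Y551A and 0.88 ± 0.059 in WT (adjusted p = 6.72e-07 and 1.66e-11), and its change of 0.13 ± 0.061 in Y551A-Dim was not called (adjusted p = 0.451).

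In set 2, Cebpb libraries of D647V-Tetra held 54.6, 54.7 and 51.6 CPM with Dex and 48.3, 37.2 and 39.6 CPM with EtOH. D647V libraries held 49.2, 34.5 and 38.5 CPM with Dex and 32.8, 38.2 and 35.8 CPM with EtOH, and WT libraries 80.6 and 92.2 CPM with Dex and 55.2 and 36.3 CPM with EtOH. The ranges overlapped in D647V alone, where replicate 1 was highest with Dex and lowest with EtOH. Cebpb rose by 0.92 ± 0.17 log2 in WT (adjusted p = 0.0047), and the changes of 0.36 ± 0.139 in D647V-Tetra (adjusted p = 0.075) and 0.20 ± 0.139 in D647V (adjusted p = 0.856) were not called. The WT call was lost without Dex replicate 2 (adjusted p = 0.0739) or EtOH replicate 2 (0.116). With no low-count filter (adjusted p = 3e-07), with only the compared groups (0.0259) or without EtOH replicate 1 (0.0491), the D647V-Tetra change was called. The change with no filter was 0.36 log2, as with it, so the lower adjusted p does not come from a larger change.

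Cebpd, the earliest of the 3 factors in the fat cell program, was the lowest of them per kilobase in WT without Dex. Y551A-Dim libraries held 4.32, 4.69 and 5.15 CPM with Dex and 3.83, 4.35 and 3.64 CPM with EtOH, an overlap, and the change of 0.26 ± 0.132 log2 was not called (adjusted p = 0.477). Y551A libraries held 6.70, 7.10 and 7.85 CPM with Dex and 4.22, 3.22 and 3.96 CPM with EtOH, and WT libraries 6.49, 8.11 and 7.78 CPM with Dex and 5.47, 4.77 and 3.80 CPM with EtOH. In both lines Dex lay above EtOH, by 0.93 ± 0.131 log2 in Y551A (adjusted p = 3e-05) and 0.67 ± 0.127 in WT (adjusted p = 0.00114). In set 2, D647V-Tetra libraries held 6.84, 7.32 and 6.41 CPM with Dex and 6.88, 5.86 and 5.44 CPM with EtOH, D647V libraries 7.10, 7.09 and 7.38 CPM with Dex and 5.25, 5.79 and 5.68 CPM with EtOH, and WT libraries 14.3 and 18.03 CPM with Dex and 8.67 and 6.44 CPM with EtOH. The ranges overlapped in D647V-Tetra alone. Cebpd rose by 1.09 ± 0.146 log2 in WT (adjusted p = 1.83e-04), and the changes of 0.18 ± 0.121 in D647V-Tetra (adjusted p = 0.313) and 0.37 ± 0.121 in D647V (adjusted p = 0.341) were not called. Cebpb (chromosome 2, 167688915 to 167690418, plus strand) shares 1 exon stretch with Tmem189 and Cebpd (chromosome 16, 15887286 to 15891031, plus strand) 1 with Spidr, both on the opposite strand.

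**Figure D2:**
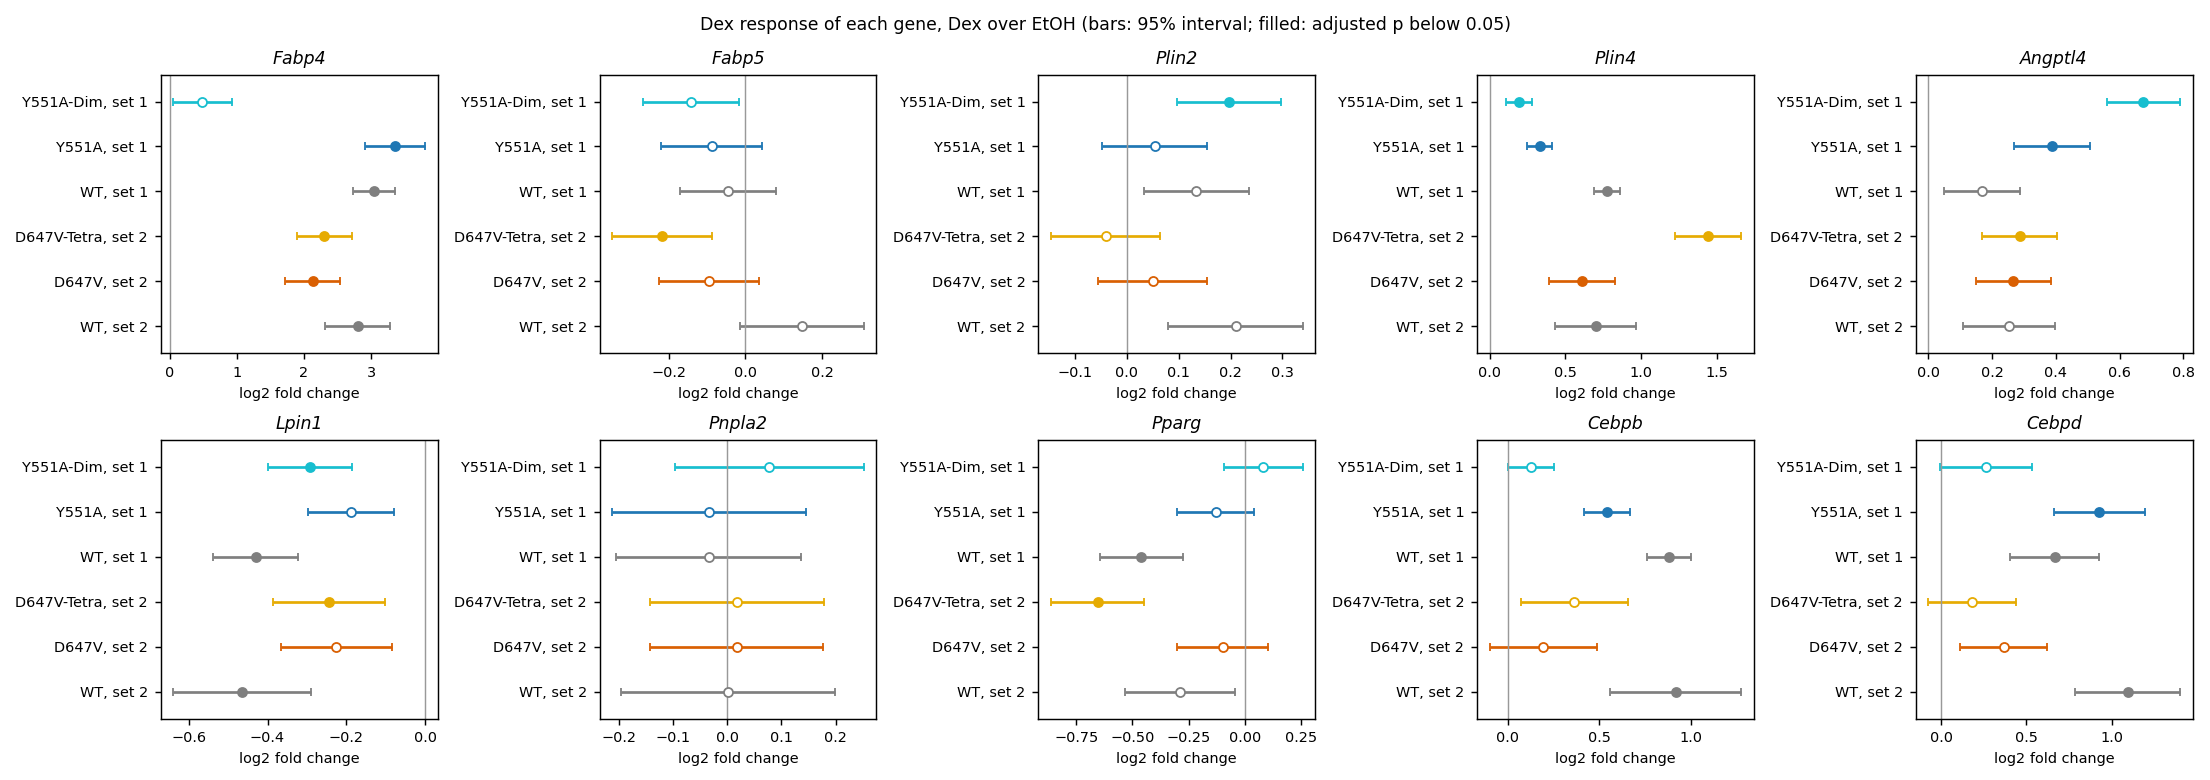
Dex response of each gene by line, as log2 fold change of Dex over EtOH; points are edgeR estimates, bars are 95% intervals, and filled points passed an adjusted p of 0.05. Fabp4, Plin4, Cebpb and Cebpd lie right of 0 in WT, Lpin1 lies left of 0 in every line, and Y551A-Dim has the lowest Fabp4 value (0.49) and the highest Angptl4 value (0.67).

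Whether the lines differ in their response was tested directly, as the difference of the Dex responses of 2 lines of a set. Between Y551A-Dim and WT, 5 of the 10 genes differed, against 1.47% of all genes tested. The response was lower in Y551A-Dim for Fabp4, with a difference of -2.55 ± 0.264 log2 (SE, adjusted p = 2.3e-07), and for 2 more genes, with differences of -0.76 ± 0.085 for Cebpb (adjusted p = 9.3e-07) and -0.58 ± 0.059 for Plin4 (adjusted p = 2.23e-07). For Angptl4 the response was higher in Y551A-Dim, by 0.51 ± 0.080 (adjusted p = 1.96e-04). For Pparg the difference was 0.54 ± 0.124 (adjusted p = 0.0157), with a fall called in WT and none in Y551A-Dim. The Pparg call rested on 4 libraries: it was lost without Y551A-Dim Dex replicate 1 (adjusted p = 0.0581), Y551A-Dim EtOH replicate 1 (0.073), WT Dex replicate 2 (0.0763) or WT EtOH replicate 3 (0.0574).

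Against Y551A, which shares its first substitution by name, Y551A-Dim had a lower response of Fabp4 (difference -2.87 ± 0.316 log2, adjusted p = 1.27e-06) and Cebpb (-0.42 ± 0.086, adjusted p = 0.0126), 2 of 10 genes against 0.558% of all. The Cebpb call was lost without Y551A Dex replicate 2 (adjusted p = 0.0617) or Y551A EtOH replicate 2 (0.0636). Between Y551A and WT only Plin4 differed (-0.44 ± 0.059 log2, adjusted p = 2.56e-04), 1 of 10 genes against 0.18% of all. The Fabp4 responses of Y551A and WT differed by 0.31 log2 with a 95% interval of -0.27 to 0.89, and no difference was called. The Cebpb difference of -0.34 ± 0.085 (adjusted p = 0.142) and the Lpin1 difference of 0.24 ± 0.074 (adjusted p = 0.444) were called only with no low-count filter (adjusted p = 0.0315 for each) or with only the compared groups in the model (0.0498 and 0.0205).

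In set 2, D647V-Tetra and WT differed in 3 of the 10 genes, against 4.41% of all (774 genes, or 75 to 1643 with 1 library left out, the fewest without WT EtOH replicate 2 and the most without D647V-Tetra EtOH replicate 2). The response of Plin4 was higher in D647V-Tetra by 0.74 ± 0.162 log2 (adjusted p = 0.0171), and the differences were -0.92 ± 0.189 for Cebpd (adjusted p = 0.0129) and -0.37 ± 0.097 for Fabp5 (adjusted p = 0.0438). All 3 calls were lost without WT Dex replicate 2 (adjusted p = 0.142 for Plin4, 0.122 for Cebpd and 0.236 for Fabp5) or WT EtOH replicate 2 (0.0917 for Plin4, 0.114 for Cebpd and 0.199 for Fabp5), which leave 1 WT library in that group. The Fabp5 call was lost too without WT EtOH replicate 1 (adjusted p = 0.0515), D647V-Tetra Dex replicate 1 (0.104) or 3 (0.11), or D647V-Tetra EtOH replicate 1 (0.0815) or 3 (0.0787). Between D647V-Tetra and D647V, Plin4 alone differed, by 0.83 ± 0.145 (adjusted p = 0.0101), 1 of 10 genes against 0.873% of all (153 genes, or 49 to 271 with 1 library left out), and that call held without any 1 library.

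D647V and WT differed in 0 of the 10 genes by edgeR's quasi-likelihood test and in 0 by DESeq2, against 0.188% of all genes by edgeR, while 5 of the 10 had an unadjusted p below 0.05. Among these 5, the differences were -0.73 log2 for Cebpd (95% interval -1.13 to -0.33, adjusted p = 0.326), -0.72 for Cebpb (-1.19 to -0.26, adjusted p = 0.564) and -0.67 for Fabp4 (-1.29 to -0.048, adjusted p = 0.696). Between WT of set 2 and WT of set 1, the Dex response differed in 0 of 10 genes by both tests, with 1 at an unadjusted p below 0.05, against 0.0181% of all 16540 genes (3 genes, or 264 without EtOH replicate 1 of set 2). Comparisons with 1 WT, or with another line in common, share libraries, so they are not independent of each other.

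**Figure D3:**
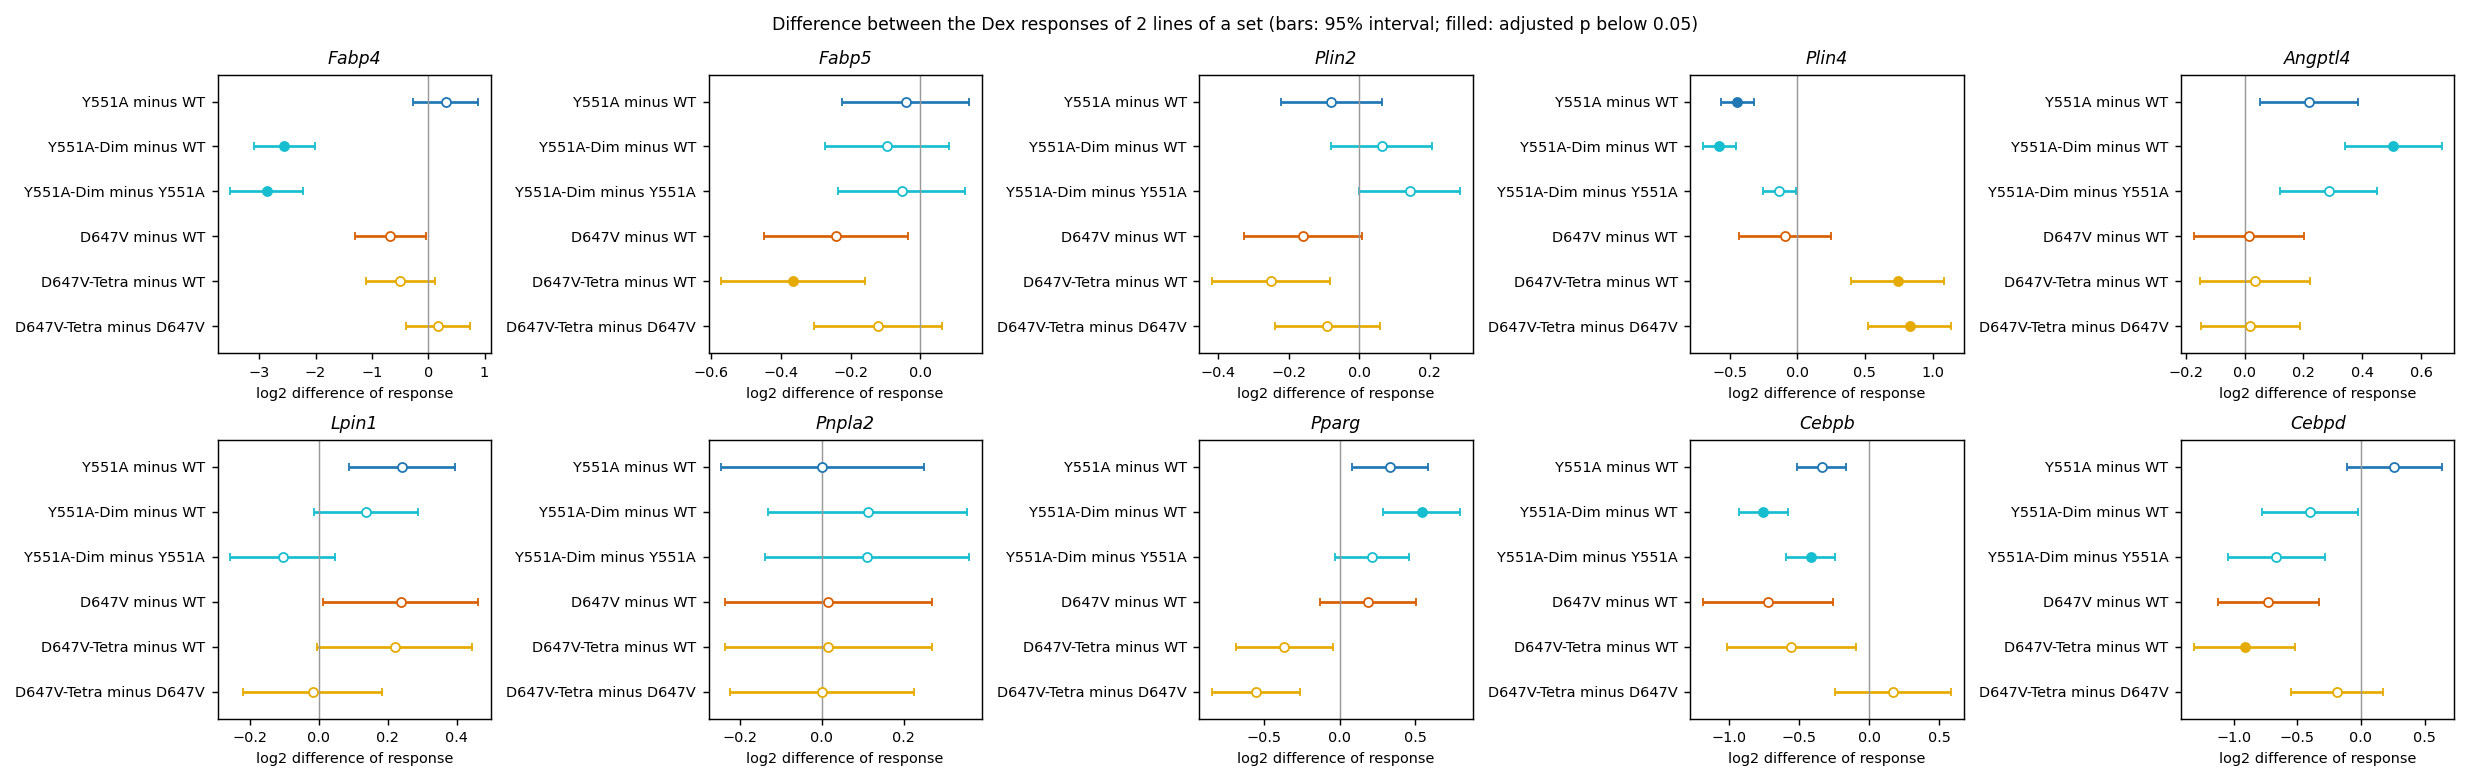
Difference of the Dex response between 2 lines of a set, as a log2 difference of the first line minus the second; bars are 95% intervals, and filled points passed an adjusted p of 0.05. The 12 filled points include Fabp4 in both Y551A-Dim rows (-2.55 and -2.87), Plin4 in both D647V-Tetra rows (0.74 and 0.83), and none in the rows of D647V minus WT.

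Without Dex the lines already differed. In EtOH, 4 of the 10 genes differed between Y551A-Dim and WT, against 23.3% of all genes, and 8 between Y551A and WT (3 higher, 5 lower), against 42.5%, so a difference in these lines was common among all genes. Fabp4 was lower in Y551A-Dim (-1.50 ± 0.192 log2) and in Y551A (-2.72 ± 0.226), at 0.749 ± 0.154 CPM in Y551A-Dim and 0.317 ± 0.0796 in Y551A against 2.13 ± 0.134 CPM in WT (SD, n = 3). The other carrier, Fabp5, was lower in Y551A as well (-0.85 ± 0.062 log2), at 44.9 ± 0.910 CPM against 80.8 ± 2.09 in WT. Plin4 and Pparg were higher in Y551A than in WT, by 0.77 ± 0.042 and 0.55 ± 0.084 log2. Pnpla2 was lower in Y551A-Dim (-0.36 ± 0.084) and in Y551A (-0.42 ± 0.084), and Lpin1 was lower in Y551A (-0.31 ± 0.052). Plin2 was 0.16 ± 0.049 higher in Y551A (adjusted p = 0.0106), and Plin4 was 0.15 ± 0.042 higher in Y551A-Dim, a call lost without Y551A-Dim EtOH replicate 1 (adjusted p = 0.0583). Cebpb was lower in both lines (-0.19 ± 0.061 in each). Its call in Y551A-Dim was lost without any 1 of the 6 EtOH libraries (adjusted p of 0.0548 to 0.119), and in Y551A without any 1 of the WT libraries or Y551A EtOH replicate 2 (0.0514 to 0.104).

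Y551A-Dim and Y551A differed in EtOH in 7 of the 10 genes, against 29% of all. Y551A-Dim was higher for Fabp4 (1.22 ± 0.264 log2), Fabp5 (0.70 ± 0.062) and Lpin1 (0.26 ± 0.052), and lower for Plin4 (-0.62 ± 0.042), Pparg (-0.46 ± 0.084) and Plin2 (-0.21 ± 0.049). Angptl4 was 0.15 ± 0.057 higher, a call (adjusted p = 0.0449) that was lost without Y551A EtOH replicate 1 (adjusted p = 0.0607) or 2 (0.238), or Y551A-Dim EtOH replicate 1 (0.162) or 2 (0.155). For 6 of these 7 genes, all but Angptl4, the difference from WT was smaller in Y551A-Dim than in Y551A.

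In set 2, D647V-Tetra and D647V each differed from WT in EtOH in Fabp5, Plin4 and Pparg. Fabp5 was higher, by 0.66 ± 0.070 log2 in D647V-Tetra and 0.48 ± 0.070 in D647V. Plin4 was lower (-0.77 ± 0.113 in D647V-Tetra and -0.59 ± 0.113 in D647V), and so was Pparg (-0.84 ± 0.105 in D647V-Tetra and -0.97 ± 0.105 in D647V). That makes 3 genes in D647V-Tetra, against 18.7% of all, and with Fabp4 4 genes in D647V, against 7.36%. Pparg stood at 10.9 ± 0.386 CPM in D647V-Tetra, 9.94 ± 0.843 in D647V (SD, n = 3) and 19.5 ± 1.63 CPM in WT (n = 2). The lower Fabp4 level of D647V (-0.85 ± 0.221 log2, adjusted p = 0.0257) was not called without WT EtOH replicate 1 (-0.57, adjusted p = 0.346) or D647V EtOH replicate 1 (adjusted p = 0.0817) or 3 (0.0946). D647V-Tetra and D647V differed in 0 of the 10 genes by edgeR and by DESeq2, with 1 at an unadjusted p below 0.05, against 4.53% of all genes by edgeR.

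**Figure D4:**
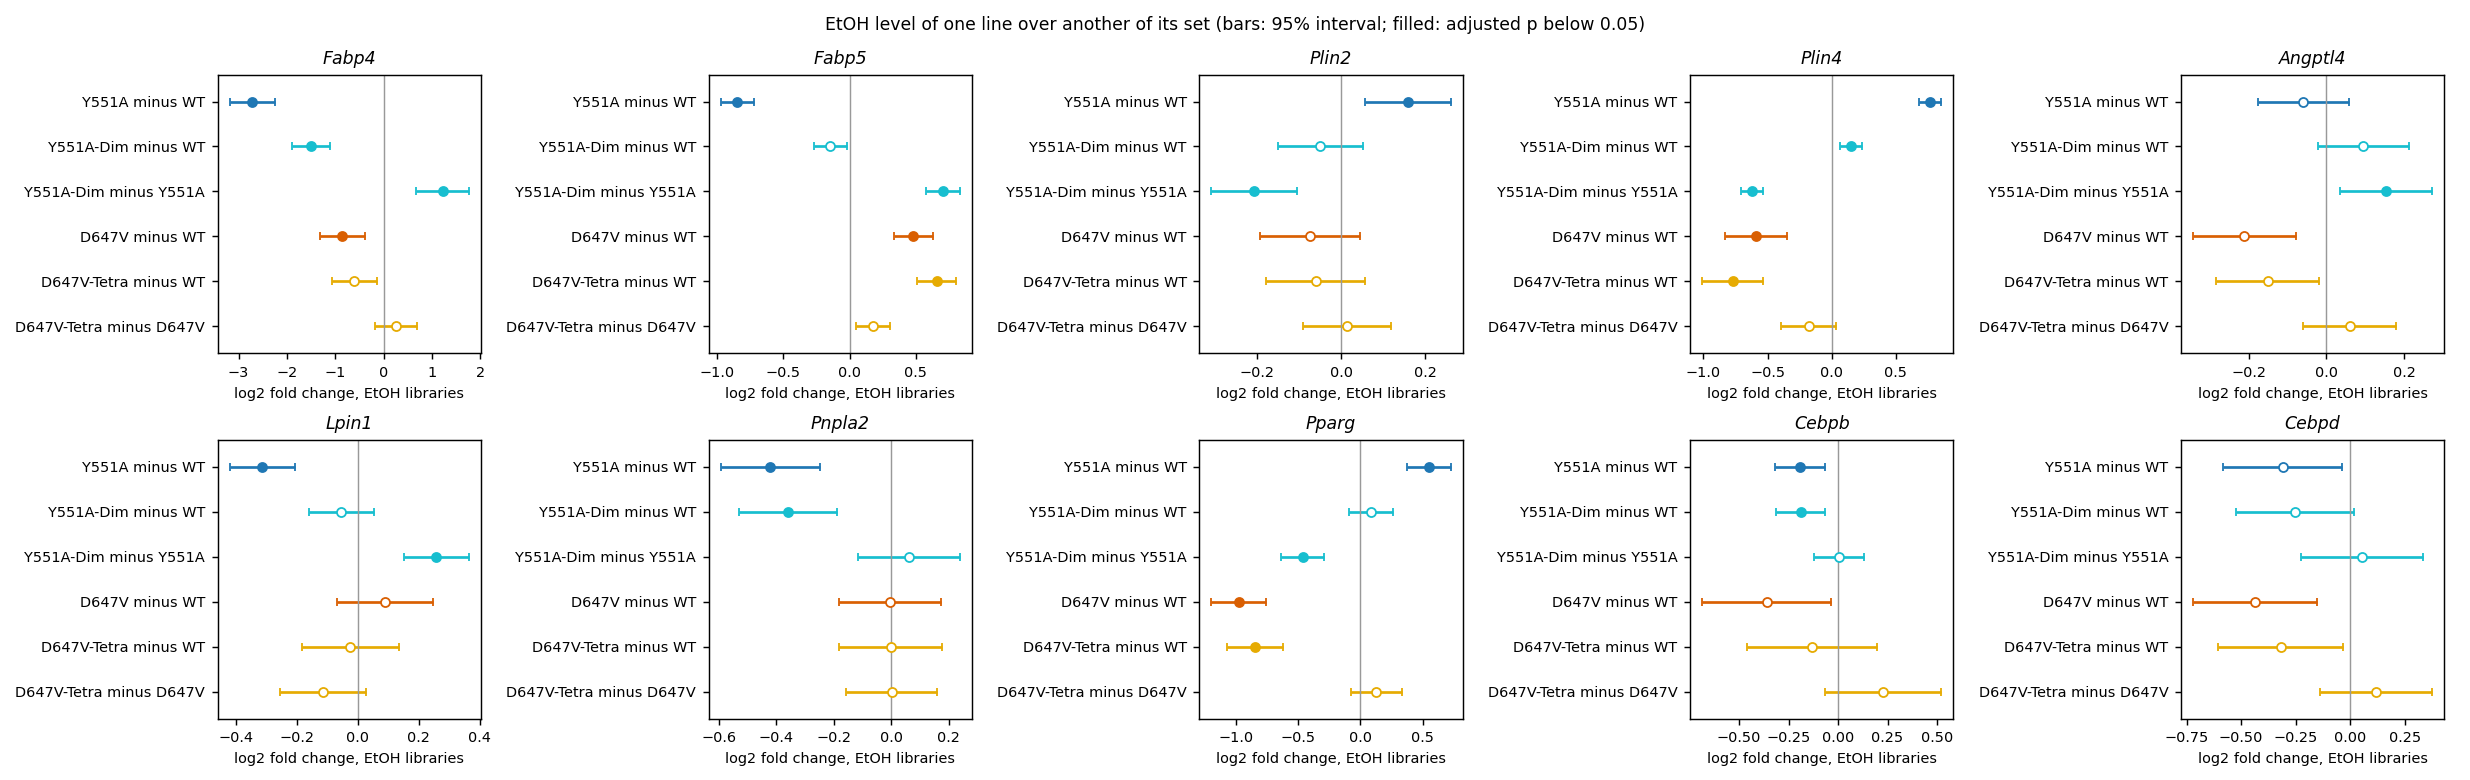
Level without Dex of one line over another of its set, as log2 fold change between EtOH libraries; bars are 95% intervals, and filled points passed an adjusted p of 0.05. Fabp4 lies left of 0 in Y551A (-2.72) and Y551A-Dim (-1.50), Plin4 and Pparg lie right of 0 in Y551A and left of 0 in both D647V lines, and no point is filled for D647V-Tetra minus D647V.

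Other genes of the pathway, in 5 lists with 95 genes, were called at shares from 0% to 28.2%. In Y551A-Dim, Dex called 0 of 68 genes tested by edgeR, with 14 at an unadjusted p below 0.05 and 1 called by DESeq2, against 1.09% of all genes. It called 5 of 68 in Y551A (3 up, 2 down), or 7.35% against 1.84% of all genes, and 10 of 68 in WT of set 1 (4 up, 6 down), or 14.7% against 3.4%. In set 2 it called 20 of 71 in D647V-Tetra (5 up, 15 down), or 28.2% against 19.2%, 4 of 71 in D647V (2 up, 2 down), or 5.63% against 0.941%, and 6 of 71 in WT (3 up, 3 down), or 8.45% against 1.72%. The lists were chosen with results of these data known, so these shares are descriptions.

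Transcription factors of the adipogenic list, of which 20 were tested, made up all calls in Y551A, D647V and WT of set 2, 7 of 10 in WT of set 1 and 7 of 20 in D647V-Tetra. Klf9, a Krüppel-like factor known as a direct glucocorticoid target, averaged 26.0 ± 1.20 CPM with Dex and 25.0 ± 1.09 CPM with EtOH in Y551A-Dim, 52.3 ± 0.365 with Dex and 29.4 ± 0.858 with EtOH in Y551A, and 61.0 ± 2.12 with Dex and 25.8 ± 0.711 CPM with EtOH in WT of set 1 (SD, n = 3). It rose by 0.83 ± 0.048 log2 in Y551A and 1.24 ± 0.048 in WT, and in set 2 by 0.73 ± 0.062 in D647V-Tetra, 0.77 ± 0.062 in D647V and 1.00 ± 0.077 in WT. Gata3, a factor that restrains fat cell formation, rose by 0.49 ± 0.095 log2 in Y551A, 1.46 ± 0.090 in WT of set 1, 1.13 ± 0.105 in D647V-Tetra, 0.62 ± 0.104 in D647V and 1.45 ± 0.126 in WT of set 2. Klf5 fell by 0.24 ± 0.059 in Y551A, 0.46 ± 0.060 in WT of set 1, 0.24 ± 0.067 in D647V-Tetra, 0.30 ± 0.066 in D647V and 0.58 ± 0.082 in WT of set 2. Ddit3, a C/EBP family member that blocks other C/EBP proteins, fell by 0.33 ± 0.074 in Y551A, 0.50 ± 0.068 in WT of set 1, 0.50 ± 0.059 in D647V-Tetra and 0.43 ± 0.073 in WT of set 2. Klf4 fell by 0.49 ± 0.080 in WT of set 1, 0.33 ± 0.065 in D647V-Tetra, 0.32 ± 0.064 in D647V and 0.41 ± 0.079 in WT of set 2. Klf15, a glucocorticoid-induced Krüppel-like factor, rose in WT of set 1 by 1.97 ± 0.439 log2, at 50 to 56 reads per library with Dex and 9 to 21 with EtOH, in D647V-Tetra by 1.32 ± 0.415, at 28 to 48 reads with Dex and 10 to 18 with EtOH, and in WT of set 2 by 2.29 ± 0.534, at 32 and 50 reads with Dex and 8 and 10 with EtOH. It was called in Y551A on 4 to 8 reads per library with Dex and 0 in each EtOH library.

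The other lists held fewer calls, except in D647V-Tetra. Of the list of lipid droplet and triglyceride synthesis genes, 17 were tested in set 1 and 18 in set 2; Gpat3, an acyltransferase of the first step, fell by 0.28 ± 0.063 log2 in WT of set 1 and by 0.40 ± 0.070 in D647V-Tetra, where Agpat2 (-0.19), Lpin2 (-0.12) and Hilpda (-0.26) fell too. G0s2, the inhibitor of the Pnpla2 lipase, fell by 0.44 ± 0.097 in WT of set 1 and by 0.42 ± 0.130 in D647V-Tetra, 1 of 6 lipolysis genes tested in each. Pdk4, the kinase that turns glucose oxidation down, rose in WT of set 1 by 0.51 ± 0.137 log2 (adjusted p = 0.0298), at 3.86 ± 0.457 CPM with Dex and 2.71 ± 0.499 CPM with EtOH, the 1 gene called of 14 tested in fatty acid oxidation there. In D647V-Tetra, Acadl rose by 0.25 ± 0.059 and 3 genes of that list fell. Uptake and transport genes were called in D647V-Tetra alone (4 of 13, all down), with Acsl3 at -0.21 ± 0.046 and Angptl6 at -0.52 ± 0.145 log2.

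The genes whose pattern over the 34 libraries was most like that of a listed gene were found among 11084 genes after centring each library on the EtOH mean of its own line. For Fabp4 they were N4bp1 (Pearson r = 0.963), Tsc22d3 (0.96) and Zfp36l2 (0.957). For Plin4 they were Sorbs3 (r = 0.973), Mknk2 (0.968) and Sik1 (0.961). For Angptl4 they were Osr1 (r = 0.895), Tnfrsf1b (0.877) and Gprc5b (0.859), and for Lpin1 they were Rin1 (r = 0.908), Snai2 (0.892) and Fhdc1 (0.87). These values are descriptions: the libraries share lines and treatments, so they are not independent, and any gene that moves with Dex in the same lines correlates.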

How the data were processed

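Total RNA was sequenced as 100 bp paired reads from 34 libraries in 12 groups, which the sample titles place in 2 library sets by their library numbers; the headers of the 16 libraries in set 2 say resent, those in set 1 do not. Per the submitters' processing notes, the authors used bcl2fastq 2.17, cutadapt and STAR with mm10. Per the file headers, the authors' deposited values are raw counts per gene name from featureCounts 2.0.3 on GENCODE vM21, stranded (option 2), with both mates of a pair counted, so a fragment can add 2 reads. A 5% Drosophila cell spike-in is named in the labels and played no part here.

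The models were fitted in R 4.3.3 with edgeR 4.0.16 (filterByExpr, TMM scaling, quasi-likelihood test on group means, two-sided, Benjamini-Hochberg over all genes), in separate models of set 1 (16140 genes, 12 residual degrees of freedom), set 2 (17535, 10) and the WT libraries (16540, 6). The SE of a change is its size divided by the square root of F. CPM are on normalized library sizes, and RPKM divide CPM by exon length in kilobases. The members and lists were chosen with earlier results of these data known. Every member was named. Of each list and contrast, the plan was to name at most the 4 called genes with the lowest adjusted p. For the adipogenic transcription factors more called genes are given. For likeness, genes needed an average log2 CPM of at least 1 (prior count 2) and members a call in at least 4 lines.

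On simulated counts for Y551A, 81% of genes changed by 0.5 log2 and 95% of those changed by 1 log2 were recovered over 15850 genes, with 5.38% of calls false; false calls were 7.41% for D647V over 17160 genes and 11.2% for WT over both sets over 16137 genes, above the 5% aimed at. Replicate numbers were checked for pairing. None of the 17 pairs of Dex and EtOH libraries of 1 line had correlated deviations above 0.1 (range -0.646 to 0.085). Over any 2 groups of a set 19 of 81 did (-0.646 to 0.626), so the numbers were not taken to pair libraries. Correlations ran from -0.342 to 0.319 in set 1, and the stronger ones of both signs were in set 2. There WT Dex and D647V EtOH replicate 1 had 0.626, and D647V-Tetra EtOH and Dex replicate 2 had -0.646. Libraries of set 2 may thus share deviations that the numbers do not follow. The main model takes them as independent, and such sharing was not tested. Replicates of a group differed by more than sampling noise, with a chi-square per degree of freedom from 2.86 to 70.4. It ran from 2.86 to 27.2 in set 1 and from 13 to 70.4 in set 2. In WT it was at most 5.98 in set 1, against 38.5 (Dex) and 40.3 (EtOH) in set 2. The variation between libraries estimated by edgeR was 5.13% in set 1 and 8.62% in set 2. Numbers of calls are therefore not directly comparable between sets. The WT model used 1 estimate of spread per gene for both sets. Other settings were DESeq2 1.42.0 (size factors, and its test), no low-count filter, the compared groups only, a replicate block and leaving out each library.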

Additional observations from a re-analysis of the deposited data

Results flagged for a closer look

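For 12 values the Dex responses of 2 lines of a set differed by the test of the difference itself (edgeR's quasi-likelihood test, adjusted p below 0.05). Those against 1 WT, or with Y551A-Dim or D647V-Tetra in common, share libraries and are not independent.

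For Fabp4 the response in Y551A-Dim differed by -2.55 log2 from WT and by -2.87 from Y551A. For Cebpb the same pairs gave -0.76 (Y551A-Dim minus WT) and -0.42 (Y551A-Dim minus Y551A). Plin4 differed in 4 pairs, by -0.58 (Y551A-Dim minus WT), -0.44 (Y551A minus WT), 0.74 (D647V-Tetra minus WT) and 0.83 (D647V-Tetra minus D647V). For Angptl4 and Pparg, Y551A-Dim minus WT gave 0.51 and 0.54. For Cebpd and Fabp5, D647V-Tetra minus WT gave -0.92 and -0.37.

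Of these 12 values, 7 belong to a gene and pair of lines that also differed in EtOH and 5 to one with no call there. Among the 7, in EtOH Fabp4 was lower in Y551A-Dim than in WT (-1.50 log2) and Plin4 was lower in D647V-Tetra than in WT (-0.77). Nr3c1 levels lay between 234 and 380 CPM over all libraries. Every WT library lay below those of Y551A-Dim and Y551A in set 1 and above those of D647V-Tetra and D647V in set 2. The part of EtOH levels or of Nr3c1 levels in the differences of response was not tested.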

How the results depend on the processing

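Of the values of single genes under other settings, 2333 kept their direction and their side of the threshold, 72 lost and 48 gained a call, and 97, called under neither setting, changed sign, while no called value did. DESeq2's size factors moved no member by more than 0.017 log2.

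Counts of members called moved by over 1.5 times as follows. With only the compared groups in the model, 1 gene was called for Dex in Y551A-Dim (against 4) and 3 for Y551A minus WT (against 1). With no low-count filter, 3 were called for Y551A minus WT, 2 for D647V minus WT (against 0), 2 for D647V-Tetra minus D647V (against 1) and 3 for D647V-Tetra minus D647V in EtOH (against 0). These calls do not follow the spread of the libraries closely. For Cebpb, D647V minus WT had an adjusted p of 1.13e-10 by edgeR's test in this setting. Yet D647V Dex libraries ran from 34.5 to 49.2 CPM and WT EtOH libraries of set 2 from 36.3 to 55.2 CPM. Why this setting lowered adjusted p was not tested. DESeq2's test and the replicate block each called 2 for D647V-Tetra minus D647V, adding Pparg. The WT model holds just the groups compared, so that setting was not run there.

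Leaving out 1 library in turn gave 2 to 6 genes for Dex in Y551A-Dim, 3 to 5 for Dex in WT of set 2, 1 to 3 for Y551A-Dim minus Y551A, 0 to 4 for D647V-Tetra minus WT, 1 to 2 for D647V-Tetra minus D647V and 2 to 3 for Y551A-Dim minus WT in EtOH. A group left with 1 library is assumed to vary like the others. Why the counts of members fell or rose with 1 library left out was not tested. The Dex count in Y551A-Dim fell to 2 without Dex replicate 1 or EtOH replicate 3 and was 6 without Dex replicate 3.

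Under the replicate block, Plin2 in Y551A-Dim (3 genes left, adjusted p = 0.0609), Angptl4 in D647V (2 left, adjusted p = 0.0524), Fabp5 in D647V-Tetra minus WT (2 left, adjusted p = 0.0772) and Fabp4 in D647V minus WT in EtOH (3 left, adjusted p = 0.0569) were no longer called. In WT of set 2, numbers may be crossed (correlation -0.541). With the numbers of the WT EtOH libraries exchanged, chosen after seeing the data, 5 members and 272 genes were called, the counts of the block as numbered. The block was shared by all groups of set 2, and the other lines kept their numbers. The equal counts therefore cannot show whether the WT libraries are paired.

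Counts over all genes also moved by over 1.5 times with 1 library left out for Y551A minus WT (17 to 32 genes, against 29), Y551A-Dim minus Y551A (69 to 222, against 90), D647V minus WT (19 to 35, against 33) and, in EtOH, for D647V-Tetra minus WT (1498 to 3598, against 3277), D647V-Tetra minus D647V (188 to 1131, against 795) and D647V minus WT (364 to 1057, against 1290).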
